A study of Homo sapiens with 20 samples.

Results

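The genes described are 10 inflammatory genes of 58870 in the table of gene counts, taken by name: the chemokines CXCL8, CXCL1, CXCL2 and CCL2, the cytokines IL6, IL1B, IL24 and LIF, and the NF-kB feedback inhibitors TNFAIP3 and NFKBIA. Each had 1 row. They were followed in 12 RNA-seq libraries, and FRA1 Cut&Run counts in 8 further libraries were taken from the 60 of 54563 consensus peaks whose centre lay within 50 kb of a start of one of these genes. The study silenced FRA1, the AP-1 subunit encoded by FOSL1, in 2 human melanoma cell lines. A375 cells were sequenced after a non-targeting siRNA (si-NT, 3 libraries) or siRNA against FRA1 (si-FRA1, 3 libraries), and 1205Lu cells in the same way (3 and 3 libraries). Cut&Run, in which an antibody directs a nuclease to release the DNA around a bound protein, was done on A375 and 1205Lu cells with an antibody against FRA1 (3 libraries per line) or with IgG (1 library per line). All RNA-seq libraries thus come from siRNA-treated cells, and each line is a single cultured tumor cell line. The siRNA sequences and the harvest time are not given in the sources used here. The replicates are not stated to be separate cultures, so the p-values measure the spread between these libraries, which may be technical.

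Chemokines of the CXC family such as CXCL8, CXCL1 and CXCL2 attract neutrophils, CCL2 attracts monocytes, and IL6, IL1B, IL24 and LIF signal through receptors on neighboring cells or on the cell that secreted them. Many of these genes are switched on when NF-kB dimers enter the nucleus, often together with AP-1 factors, of which FRA1 is one. NFKBIA (IκBα) holds NF-kB in the cytoplasm and TNFAIP3 (A20) edits ubiquitin chains on the signaling complexes upstream, and both are themselves NF-kB targets, so that they close a negative feedback loop. Melanoma cells are known to secrete several of these factors.

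Totals per RNA-seq library were 20573412 to 32518903 counts. FOSL1 was at 418 to 436 CPM (counts per 1000000 of the library total after TMM scaling) in the A375 si-NT libraries and at 26.7 to 27.0 CPM with si-FRA1, a 16.1-fold reduction, and fell from 453 to 470 CPM to 63.3 to 69.2 CPM in 1205Lu cells, a 7.16-fold reduction. With si-NT, the summed level of 8 melanocyte lineage markers was 100 to 104 CPM in A375 cells and 1430 to 1490 CPM in 1205Lu cells. With si-FRA1 it was 103 to 110 and 1230 to 1250 CPM. The markers did not all go 1 way between the lines. With si-NT, SOX10 had a mean of 45.1 CPM in A375 and 868 CPM in 1205Lu cells, whereas MITF had 53.6 and 3.37 CPM. Of the 6 that could be tested between the si-NT lines, 3 were called higher in 1205Lu cells, 1 lower and 2 not called. MLANA and TYR were too low to be tested in either line. Of 7 leukocyte markers, only CD68, which is not limited to leukocytes, had at least 10 counts in every library. Cut&Run totals in peaks were 3354095 to 5316527 counts for FRA1 in A375 cells but 583750 to 897407 in 1205Lu cells, and the IgG libraries held 383994 and 314569 counts. FRA1 replicates 2 and 3 of 1205Lu cells differed by about what sampling noise gives, and were counted as 1 sample. Their chi-square per degree of freedom was 1.007 over peaks with a summed count of at least 50 and 1.06 with at least 20, and the limit of 50 was chosen after the first value at 20 was seen, while the nearest other pair was at 1.063 and 1.093.

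The sequences upstream of 6 of these genes are shown first, because they carry the NF-kB motifs and, in CXCL8, the AP-1 motif to which the results refer. Each runs from 150 to 41 bases before the RefSeq start (build GRCh38.p14), 5′ to 3′ along the gene. Capitals mark the AP-1 motif (TGACTCA, or TGAGTCA on the other strand), the NF-kB consensus of 10 bases, and a looser NF-kB motif, GGNNNTTCC, added after the data were seen, all searched on both strands. A looser match overlaps the consensus in each sequence that holds both. CXCL1 and CXCL2 also hold a looser match apart from the consensus, GGGCTTTCC, beginning 53 bases before the start.
CXCL8 promoter (chr4:73740419-73740528, plus strand): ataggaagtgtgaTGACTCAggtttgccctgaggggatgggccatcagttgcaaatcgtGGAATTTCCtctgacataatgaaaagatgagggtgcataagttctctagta
CXCL1 promoter (chr4:73869243-73869352, plus strand): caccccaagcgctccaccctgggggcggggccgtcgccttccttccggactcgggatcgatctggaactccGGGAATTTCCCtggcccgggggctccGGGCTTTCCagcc
CXCL2 promoter (chr4:74099236-74099345, minus strand): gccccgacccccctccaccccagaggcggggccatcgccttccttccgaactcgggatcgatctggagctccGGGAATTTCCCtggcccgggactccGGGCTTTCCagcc
IL6 promoter (chr7:22727050-22727159, plus strand): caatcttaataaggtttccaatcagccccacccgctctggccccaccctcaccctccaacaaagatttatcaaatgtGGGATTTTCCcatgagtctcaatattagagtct
TNFAIP3 promoter (chr6:137867109-137867218, plus strand): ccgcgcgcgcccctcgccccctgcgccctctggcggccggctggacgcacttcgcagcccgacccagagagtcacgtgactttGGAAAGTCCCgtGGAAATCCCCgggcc
NFKBIA promoter (chr14:35404790-35404899, minus strand): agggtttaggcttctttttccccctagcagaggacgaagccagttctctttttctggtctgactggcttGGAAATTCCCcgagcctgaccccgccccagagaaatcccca

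In the full window of 250 bases before to 50 after the start, 8 of the 10 genes had a RefSeq entry. Of these 8 windows, the AP-1 motif was found in that of CXCL8 alone, beginning 137 bases before the start, and it occurs in 4.9% of all 35116 windows. The NF-kB consensus was found in the windows of CXCL1, CXCL2, IL6, TNFAIP3 and NFKBIA, against 11.3% of all windows. CXCL8 held the looser motif only, 91 bases before the start, which 20.1% of all windows hold. The windows of IL1B and IL24 held none of these letters, and the CRE motif TGACGTCA, present in 1.8% of all windows, was not found in the 8. A match describes letters and not a bound site.

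In A375 cells, silencing of FRA1 was followed by higher RNA of 5 of the 10 genes and lower RNA of 1, at an adjusted p under 0.05 in edgeR's quasi-likelihood test. Over all 16899 genes tested, 25.7% were called higher and 25.1% lower. CCL2, TNFAIP3 and IL6 rose by more than a log2 fold change of 1, a limit that 2.77% of all genes passed upwards and 2.79% downwards. The median log2 fold change was 0.45 over the 10 genes and 0.00 over all genes tested. In what follows, values for single libraries are in the order of the library numbers.

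CCL2, the monocyte chemokine (chr17:34255274-34257208), moved furthest in A375 cells. It was at 3.53, 2.48 and 2.42 CPM in the A375 si-NT libraries and at 13.6, 11.9 and 12.8 CPM with si-FRA1. All 3 silenced libraries lay well above all 3 controls, a 4.49-fold rise (log2 2.17, standard error 0.143, adjusted p = 5.9e-12 from edgeR). In 1205Lu cells CCL2 had 1 to 10 counts per library and was not tested. Its levels there were 0.318, 0.0417 and 0.158 CPM in the controls and 0.385, 0.392 and 0.279 CPM after silencing, and these ranges overlapped.

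CXCL8, the main neutrophil chemokine (chr4:73740519-73743716), was at 2.14, 2.36 and 2.84 CPM in the A375 si-NT libraries and at 3.20, 3.61 and 4.72 CPM with si-FRA1. The groups did not overlap, and the rise was 1.53-fold (log2 0.61, standard error 0.206, adjusted p = 0.016 from edgeR). The call was lost without si-NT replicate 1 (adjusted p = 0.059) and without si-FRA1 replicate 3 (adjusted p = 0.12). In 1205Lu cells CXCL8 was at 2.57, 2.46 and 2.40 CPM in the controls and 3.89, 3.53 and 2.74 CPM after silencing. Although the silenced libraries all lay above the controls, the log2 fold change of 0.39 did not pass the test (adjusted p = 0.13 from edgeR, 95% interval -0.02 to 0.80).

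CXCL1, a related neutrophil chemokine (chr4:73869393-73871308), was the gene of the 10 that fell in A375 cells. It was at 2.69, 2.61 and 2.42 CPM in the controls and at 1.598, 1.04 and 1.31 CPM after silencing. The groups were clearly apart, a 1.97-fold reduction (log2 -0.98, standard error 0.254, adjusted p = 0.0025 from edgeR). In 1205Lu cells it was at 0.763, 1.33 and 1.34 CPM in the controls and at 1.49, 2.18 and 1.39 CPM after silencing. There the silenced libraries lay just above the controls, and the log2 fold change of 0.52 did not pass the test (adjusted p = 0.22 from edgeR, 95% interval -0.15 to 1.19).

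CXCL2, a neighbor of both on chromosome 4 (chr4:74097040-74099196), was at low counts, 12 to 20 per A375 library and 2 to 9 per 1205Lu library. Its levels in A375 cells were 0.557, 0.733 and 0.807 CPM in the controls and 0.543, 0.565 and 0.842 CPM after silencing. These ranges overlapped (log2 -0.14, 95% interval -1.01 to 0.73), and in 1205Lu cells it was not tested. Of the stretches of 100 bases in CXCL2 transcripts, 5.3% also occur in CXCL3 transcripts, so some of its reads could be shared.

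IL6, which signals through gp130 and STAT3 (chr7:22725884-22732002), was at 1.3, 0.489 and 1.15 CPM in the A375 si-NT libraries and at 2.43, 2.30 and 2.36 CPM with si-FRA1. The silenced libraries were close to each other and above all controls, of which the second was low (28, 12 and 27 counts). The rise was 2.39-fold (log2 1.26, standard error 0.31, adjusted p = 0.0015 from edgeR). In 1205Lu cells IL6 had 2 to 7 counts per library and was not tested.

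IL1B, an interleukin that inflammasomes process (chr2:112829751-112836816), was at 5.85, 6.44 and 6.03 CPM in the A375 controls and 7.58, 7.22 and 7.92 CPM after silencing. The groups did not overlap, but the log2 difference of 0.28 missed the threshold (standard error 0.125, adjusted p = 0.063 from edgeR). With upper-quartile normalization it passed (adjusted p = 0.048). In 1205Lu cells IL1B was at 1 to 6 counts per library and was not tested.

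IL24, a cytokine of the IL-10 family that was first isolated from melanoma cells (chr1:206897443-206904139), was at 17.1, 17.4 and 18.1 CPM in the A375 si-NT libraries and at 18.5, 17.9 and 15.9 CPM with si-FRA1. These ranges overlapped, with a 95% interval of the log2 fold change from -0.20 to 0.13. In 1205Lu cells it was at 0.222, 0 and 0.236 CPM with si-NT (7, 0 and 6 counts) and at 1.25, 0.696 and 0.604 CPM with si-FRA1 (26, 16 and 13 counts). All silenced libraries lay above the controls, but the gene passed the filter on low counts through the silenced libraries alone, so its call there (log2 2.33, adjusted p = 0.0059 from edgeR) is given as a description. This call ended when si-FRA1 replicate 1 was left out (adjusted p = 0.057), and the gene drops out with at least 10 counts in every sample.

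LIF, a gp130 cytokine that maintains stem cells (chr22:30240453-30246759), had the highest level of the 10 in 1205Lu cells. It was at 190.2, 189 and 187 CPM in the controls and at 149, 144 and 150.2 CPM after silencing. The groups were tight and apart, a 1.33-fold reduction (log2 -0.41, standard error 0.0276, adjusted p = 2e-10 from edgeR). In A375 cells it was at 15.7, 16.01 and 14.7 CPM in the controls and at 14.5, 14.9 and 17.1 CPM after silencing. Those ranges overlapped (log2 -0.03, 95% interval -0.21 to 0.15).

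The feedback inhibitors rose in both lines. TNFAIP3 (chr6:137867214-137883314) was at 21.6, 21.1 and 21.9 CPM in the A375 controls and at 47.4, 44.5 and 43.3 CPM with si-FRA1. The 1205Lu controls were at 6.48, 6.30 and 7.80 CPM and the silenced cells at 11.6, 11.2 and 10.1 CPM. No silenced library overlapped the controls of its line. The rise was 2.06-fold in A375 cells (log2 1.04, standard error 0.0578, adjusted p = 2.4e-13 from edgeR) and 1.54-fold in 1205Lu cells (log2 0.62, standard error 0.122, adjusted p = 0.00034).

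NFKBIA (chr14:35401079-35404749) was at 23.1, 19.6 and 20.8 CPM in the A375 controls and at 35.6, 36.2 and 36.5 CPM after silencing. The 1205Lu controls were at 18.3, 17.1 and 17.1 CPM and the silenced cells at 22.8, 25.5 and 25.2 CPM. Again every silenced library lay above the controls of its line. The rise was 1.68-fold in A375 cells (log2 0.75, standard error 0.0648, adjusted p = 8.2e-10 from edgeR) and 1.34-fold in 1205Lu cells (log2 0.43, standard error 0.071, adjusted p = 5.7e-05).

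**Figure D1:**
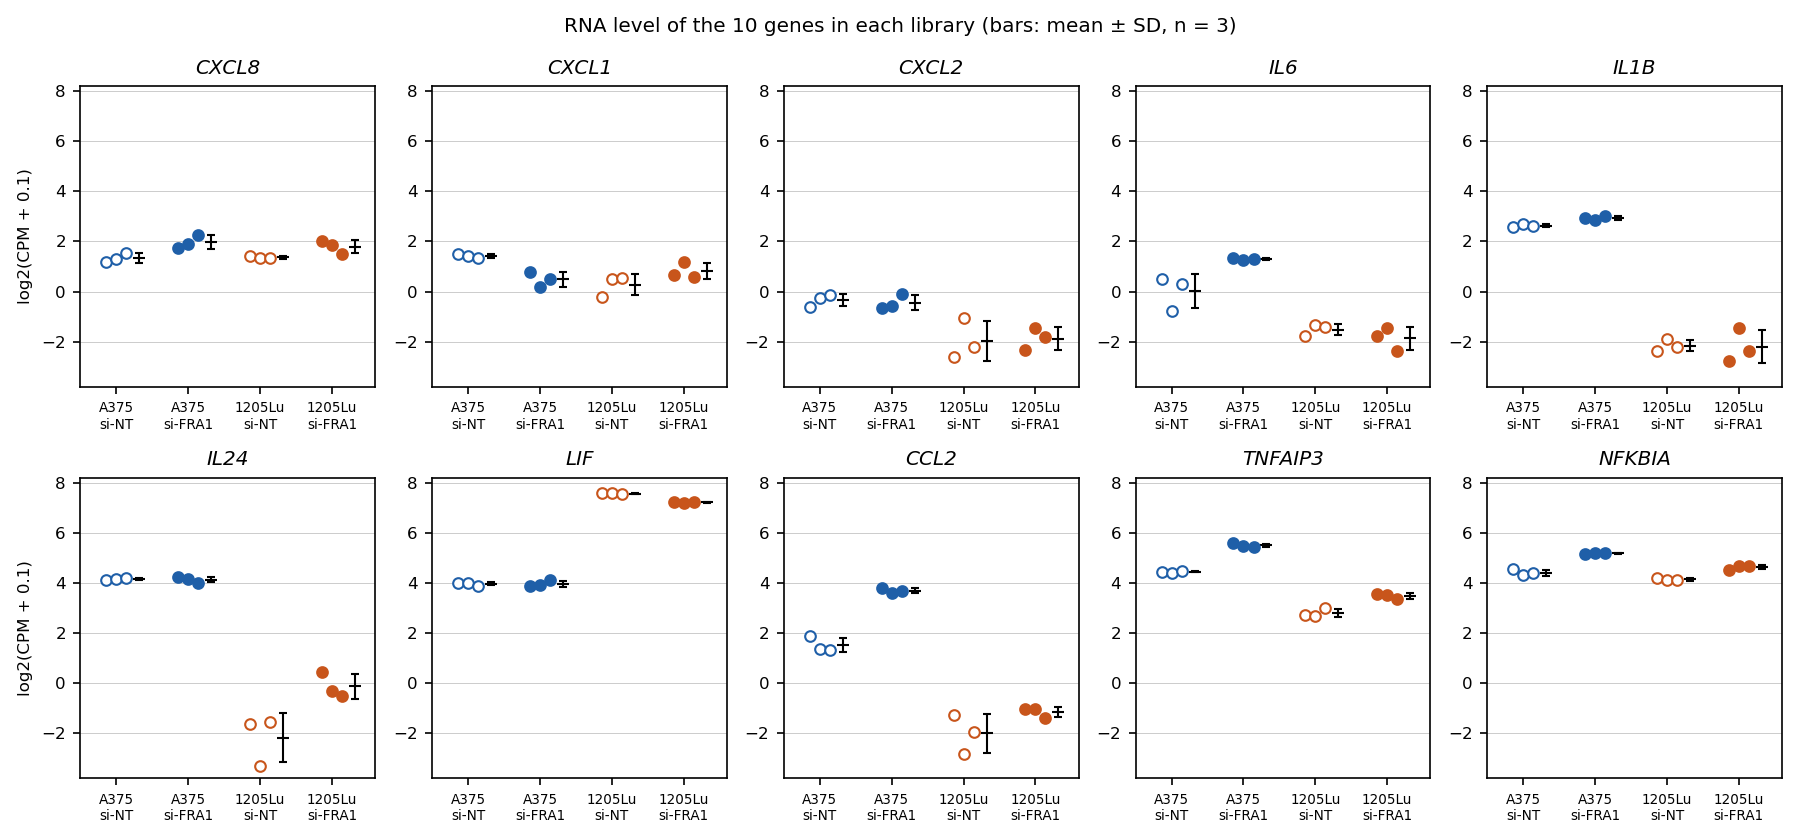
RNA level of each gene as log2(CPM + 0.1) in every library of A375 (blue) and 1205Lu (orange) cells, with open points for si-NT, filled points for si-FRA1 and bars for the mean ± SD of 3 libraries. CCL2 in A375 cells moved from 2.42 to 3.53 CPM up to 11.9 to 13.6 CPM, while LIF in 1205Lu cells moved from 187 to 190.2 CPM down to 144 to 150.2 CPM.

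In 1205Lu cells 6 of the 10 genes passed the filter, of which TNFAIP3, NFKBIA and, through the filter named above, IL24 were called higher and LIF lower, against 20.6% and 19.9% of all 17136 genes. CXCL2, IL6, IL1B and CCL2 were too low to be tested there. TNFAIP3, NFKBIA and LIF stayed under the log2 limit of 1, which 1.09% of all genes passed upwards and 2.04% downwards. IL6, LIF, IL24 and TNFAIP3 each overlap a gene on the opposite strand, among them IL6-AS1 and LIF-AS1. Whether the counting used the strand is not given in the sources used here, so reads of such partners may be included.

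The effect of silencing differed between the lines for 5 of the 10 genes in the fit of all 12 libraries, against 31.9% of 19452 genes. CXCL1 and IL24 had a more positive effect in 1205Lu cells, with differences of log2 fold changes of 1.51 (standard error 0.404, adjusted p = 0.005 from edgeR) and 2.35 (standard error 0.466, adjusted p = 0.00028), the latter against 1205Lu controls with 0 to 7 counts. The IL24 value thus rests on very few reads and is given as a description, and the count of 5 is not read as an excess over all genes. For LIF the difference was -0.37, for TNFAIP3 -0.41 and for NFKBIA -0.31 (adjusted p = 0.00021, 0.0091 and 0.018 from edgeR). Thus both feedback genes rose less in 1205Lu cells, where FOSL1 RNA was also reduced less, and the part of that unequal silencing was not tested. The NFKBIA call was lost without si-NT replicate 1 or si-FRA1 replicate 1 of 1205Lu cells or si-NT replicate 2 of A375 cells (adjusted p = 0.067, 0.07 and 0.077), and that of TNFAIP3 without si-NT replicate 3 of 1205Lu cells (0.056). For IL6 and CCL2 the differences of -1.73 and -1.29 did not pass (adjusted p = 0.055 and 0.084 from edgeR), with wide intervals of -3.13 to -0.32 and -2.45 to -0.13. These 2 genes had 2 to 7 and 1 to 10 counts in 1205Lu cells and entered the fit through the A375 libraries alone. The sizes thus rest on very few 1205Lu reads and are given as a description. Without si-NT replicate 1 of A375 cells both passed (0.037 and 0.046).

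**Figure D2:**
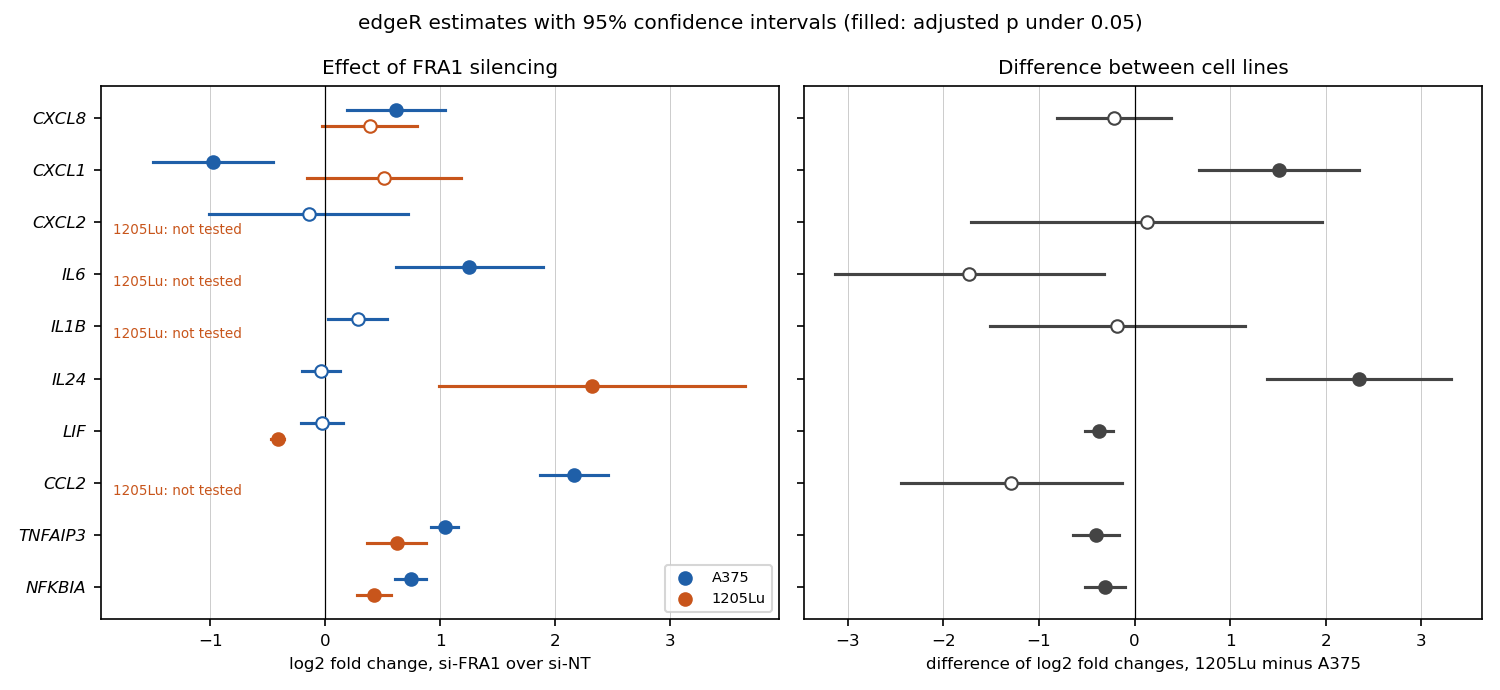
Left, log2 fold change of si-FRA1 over si-NT in A375 (blue) and 1205Lu (orange) cells. Right, the difference of these fold changes, 1205Lu minus A375. Lines are 95% intervals and filled points passed an adjusted p of 0.05. TNFAIP3 and NFKBIA lie right of 0 in both lines, while CXCL1 is filled left of 0 in A375 cells and its difference of 1.51 is filled at right.

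With si-NT, the lines held these genes at very different levels. Of the 10, 7 were lower in 1205Lu than in A375 cells and 1 was higher, against 39.2% and 38.8% of all 18050 genes tested. IL24, IL1B and CCL2 were near the floor in 1205Lu cells, with 0 to 7, 3 to 4 and 1 to 10 counts, against 369 to 428, 126 to 158 and 57 to 76 counts in A375 cells. They passed the filter through the A375 libraries alone, as did IL6 and CXCL2 (6 to 7 and 2 to 9 counts in 1205Lu cells). So no size of fold is read from these 5 genes, and the count of 7 is not read as an excess over the share of all genes. TNFAIP3, at 151 counts or more in every library, was 2.77-fold lower, and CXCL1 differed by log2 -0.997 (adjusted p = 4.2e-11 and 0.0029 from edgeR). The CXCL2 call was lost without si-NT replicate 1 or 3 of 1205Lu cells (adjusted p = 0.069 and 0.051). LIF went the other way and was 13.8-fold higher (log2 3.79, standard error 0.041, adjusted p = 8.3e-24 from edgeR). For CXCL8 and NFKBIA the log2 differences were 0.20 and -0.08 and were not called, with 95% intervals of -0.26 to 0.66 and -0.25 to 0.08. Less RNA per cell and fewer cells expressing a gene cannot be told apart in such bulk samples.

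Levels per kb of transcript allow the genes to be ordered. In A375 si-NT cells the highest was NFKBIA at 13.6 ± 1.14 CPM per kb (SD, n = 3), followed by IL24 at 8.89 ± 0.259 and TNFAIP3 at 4.62 ± 0.0795 CPM per kb. IL1B, LIF and CCL2 came next at 4.05 ± 0.199, 4.00 ± 0.173 and 3.79 ± 0.839 CPM per kb, which did not differ beyond their spread. CXCL1, CXCL8, IL6 and CXCL2 were lowest, from 2.19 down to 0.627 CPM per kb, and the last 2 were within their spread of each other. In 1205Lu si-NT cells LIF led at 48.8 ± 0.438 CPM per kb, then NFKBIA at 11.2 ± 0.458, with CXCL8 at 1.51 ± 0.0529 and TNFAIP3 at 1.47 ± 0.176, whose spreads overlapped. CXCL1 followed at 0.976 ± 0.282, and the other 5 genes lay between 0.0774 and 0.233 CPM per kb.

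Over the 12 libraries, IL6 had the pattern most like that of PTGS2 (COX-2, which makes prostaglandins), with a Pearson r of 0.987 of log2 CPM among 12897 protein-coding genes. The next for IL6 was KIAA0319L (r = 0.984). CCL2 was most like SKP1 and CDC42 (r = 0.996 and 0.995), and LIF most like DAAM2 and ACAN (r = 0.9996 for both). For TNFAIP3 the nearest were CDC73 and GALNT10 (r = 0.994 for both), and for NFKBIA they were TM9SF3 and CTNND1 (r = 0.987 and 0.983). IL1B was nearest to PNMA8A and MITF (r = 0.999 for both), and IL24 to SYNCRIP and GSPT1 (r = 0.998 for both). CXCL2 was nearest to PACRGL and TUBB4A (r = 0.961 and 0.960). CXCL8 was nearest to SF3B5 and RRN3 (r = 0.938 and 0.913), and CXCL1 to AXIN1 and SIN3A (r = 0.937 and 0.907). The points share 2 cell lines that differ widely in most of these genes, and the values are given as a description.

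Other genes of the pathway were described by lists written from general knowledge. Their counts stand beside 25.7% of all genes called higher and 25.1% lower in A375 cells, and 20.6% and 19.9% in 1205Lu cells. Of the 5 NF-kB subunits, 3 were called lower in A375 cells, whereas 3 were called higher in 1205Lu cells. RELA, NFKB1 and NFKB2 fell in A375 cells (log2 -0.25, -0.23 and -0.15), and RELB, NFKB2 and REL rose in 1205Lu cells (0.51, 0.28 and 0.21). All 5 differed between the lines toward higher in 1205Lu cells, with log2 differences of 0.23 to 0.996, where 31.9% of all genes differed in either direction. Of 12 inhibitors and feedback genes, NFKBIA and TNFAIP3 included, 5 rose and 2 fell in A375 cells, and 7 rose and 2 fell in 1205Lu cells.

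Of 22 upstream kinases and adaptors, 9 rose and 7 fell in A375 cells, and 8 rose and 6 fell in 1205Lu cells, and the shares that fell lie near those of all genes. IRAK2, a kinase below the IL-1 receptor, rose from 1.53 to 2.40 CPM to 4.38 to 4.91 CPM in A375 cells (log2 1.16, standard error 0.196, adjusted p = 2.4e-05 from edgeR) and by log2 0.92 in 1205Lu cells (adjusted p = 2.4e-06 from edgeR). Of 28 other NF-kB target genes, SOD2, whose name stands on more than 1 row, was left out and 15 could be tested in A375 cells, of which 7 rose and 4 fell. In 1205Lu cells 11 could be tested, of which 4 rose and 7 were not called. PTGS2 rose 2.99-fold, PLAU (the urokinase protease) 3.05-fold and IL32 2.62-fold in A375 cells (adjusted p = 5.5e-05, 7e-08 and 0.0083 from edgeR). IL32 had 5 to 13 counts with si-NT and 26 to 37 with si-FRA1, so that its fold rests on few reads. It lost its call without si-NT replicate 2 (adjusted p = 0.064). IRF1, the interferon regulatory factor, rose 1.39-fold in A375 cells and 2.99-fold in 1205Lu cells, and this difference passed the test (log2 1.11, adjusted p = 2.2e-07 from edgeR).

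Receptors of the cytokines were called in 1 direction. In A375 cells 7 receptor genes could be tested, of which 5 rose and 2 were not called, and in 1205Lu cells 4 of 8 rose and 4 were not called. IL1R1, the receptor for IL1B, was at 0.448 to 0.789 CPM with si-NT and at 1.22 to 1.44 CPM with si-FRA1 in A375 cells (log2 1.14, adjusted p = 0.012 from edgeR), a call lost without si-NT replicate 2 (adjusted p = 0.065). In 1205Lu cells it was far higher and rose from 31.9 to 34.2 CPM to 63.0 to 71.3 CPM (log2 0.97, adjusted p = 7.5e-12 from edgeR). The shared signaling receptor IL6ST (gp130), chosen after its values were seen, rose 1.73-fold in A375 cells and 1.63-fold in 1205Lu cells. With si-NT, 8 of the 15 listed genes could be tested between the lines, and all 8 were called higher in 1205Lu cells, against 38.8% of all genes. Among them ACKR1, at 0 to 5 counts in A375 and 124 to 172 in 1205Lu cells, passed the filter through the 1205Lu libraries alone.

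The messages of many cytokines carry AU-rich elements that bind decay factors. Of 10 regulators of such decay, 8 were called lower and 1 higher in A375 cells, whereas 1 was lower and 6 higher in 1205Lu cells, and 9 of 10 differed between the lines, all toward higher in 1205Lu cells. Of all genes 25.1% were lower in A375 cells, 20.6% were higher in 1205Lu cells and 31.9% differed between the lines. The list was not split by whether a regulator speeds or slows decay, so no direction of decay is read from these counts. ZFP36L1, chosen after its values were seen, fell 1.86-fold in A375 cells and rose 1.19-fold in 1205Lu cells. Of 18 other genes in the same chromosomal clusters, 3 could be tested in A375 cells and were not called, at log2 fold changes of -0.06 for CXCL3, 0.29 for IL1A and -0.09 for MAPKAPK2. In 1205Lu cells MAPKAPK2, a kinase that stabilizes cytokine messages, was the 1 that could be tested and was called higher (log2 0.44).

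Markers of cell types moved with silencing too. Of all genes, 25.7% were called higher and 25.1% lower in A375 cells, and 20.6% and 19.9% in 1205Lu cells. Of the melanocyte lineage markers, 5 could be tested in A375 cells, of which 3 were called higher and 1 lower. In 1205Lu cells 6 could be tested, of which 3 were called lower and 3 not called. Of 4 fibroblast markers, the 3 that could be tested in A375 cells (PDGFRB, COL1A1 and LUM) were called higher. The summed level of the 4 went from 32.6 to 35.6 CPM up to 63.9 to 65 CPM. In 1205Lu cells PDGFRB was called higher, 2 others tested were not called, and the sum went from 7.51 to 10 CPM up to 16.1 to 18.3 CPM. The summed leukocyte markers went from 80.5 to 82.3 CPM down to 59.1 to 63.9 CPM in A375 cells and from 16.7 to 17.7 CPM down to 7.18 to 8.46 CPM in 1205Lu cells, nearly all of it CD68, which fell in both lines. CD14, too low to be tested, was at 3 to 7 counts with si-NT and 8 to 21 with si-FRA1 in A375 cells, and at 0 to 4 and 0 in 1205Lu cells. The part of these markers in the results above was not tested.

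**Figure D3:**
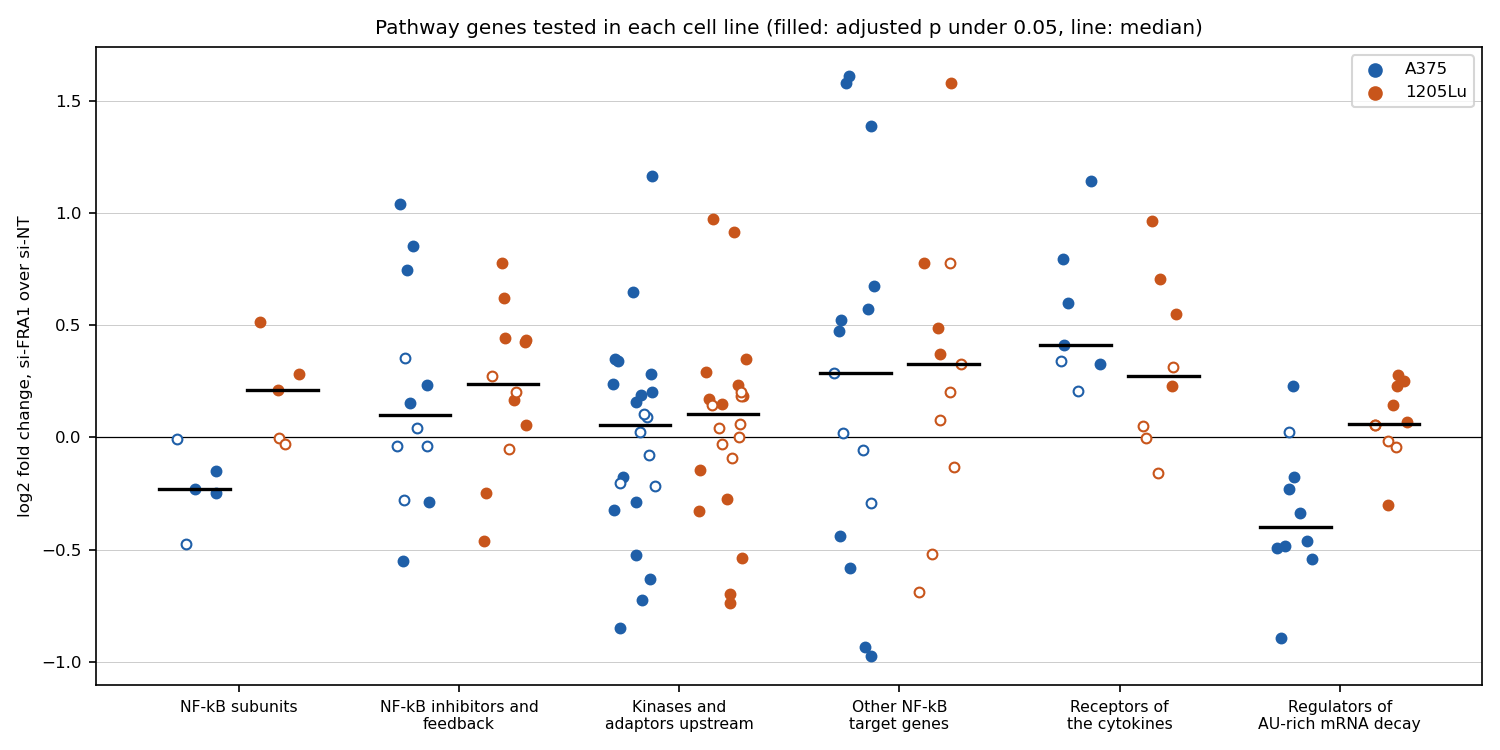
Log2 fold change of si-FRA1 over si-NT for each gene tested in the pathway lists, A375 in blue and 1205Lu in orange, filled where the adjusted p was under 0.05, with the list's median as a line. The median of the AU-rich decay regulators is -0.40 in A375 cells and 0.06 in 1205Lu cells, and that of the NF-kB subunits is -0.23 and 0.21.

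FRA1 Cut&Run counts were next compared with IgG near these genes. In A375 cells 43 of the 60 nearby peaks (71.7%) were enriched over IgG, against 57.4% of all consensus peaks. In 1205Lu cells 12 of 60 (20%) were enriched, against 7.09%, and 10 were enriched in both lines. Enrichment here means that each FRA1 library held 10 counts or more and reached 4-fold of the IgG count after adding 1 to the latter, with no scaling and no test, since there was 1 IgG library per line. When the libraries were first scaled to the same total in peaks, 0 of the 60 passed in A375 cells and 9 in 1205Lu cells, with 1.21% and 3.67% of all peaks, so that these counts depend strongly on the scaling. The FRA1 libraries held 8.73 to 13.8 times the IgG total in A375 cells but 1.86 to 2.85 times in 1205Lu cells, so unscaled counts over IgG favor A375 cells. For this reason each peak is also given as its share of the FRA1 total over its share of the IgG total, with 1 added to the IgG count. That ratio was above 1 in every FRA1 library for 14 of the 60 peaks in A375 cells and 18 in 1205Lu cells. It was below 1 in every FRA1 library for 38 and 29 of them. This ratio was not counted over all consensus peaks, so these counts are not read as high or low. Of the 60 peaks, 44 lay between genes, 4 in introns and 12 at promoters of coding genes, and for 17 the start of another coding gene was nearer.

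A consensus peak lay within 3 kb of a start for 7 of the 10 genes, against 48.8% of 19875 protein-coding genes. Of the 10 genes, the same 7 had such a peak enriched in A375 cells by unscaled counts, against 27.6% of all genes. That share is 5486 genes, of the 9695 with any consensus peak that close. In 1205Lu cells 0 of the 10 had an enriched one, against 3.72%. IL1B, LIF and NFKBIA had no consensus peak that close.

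The IL6 promoter peak (chr7:22726034-22727390) had 245, 372 and 270 counts in the A375 FRA1 libraries and 15 with IgG. In 1205Lu cells it had 20, 7 and 15 counts, and 14 with IgG. By share of the total it was 1.52 to 1.75 times IgG in A375 cells and 0.164 to 0.719 times in 1205Lu cells, so above and below IgG, and it was lower in 1205Lu cells by the test between lines (log2 -1.655, adjusted p = 9.7e-06 from edgeR). The TNFAIP3 promoter peak (chr6:137865975-137867420) had 136, 246 and 165 counts against 9 with IgG in A375 cells, and 14, 30 and 22 counts against 10 in 1205Lu cells. By share it was 1.49 to 1.78 times IgG in A375 cells and 0.686 to 0.956 times in 1205Lu cells, though its relative difference between lines did not pass the test (log2 -0.35, adjusted p = 0.21 from edgeR).

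The CXCL8 promoter peak (chr4:73740068-73740756) contains the AP-1 and looser NF-kB motifs printed above and had 32, 47 and 29 counts against 4 with IgG in A375 cells. In 1205Lu cells it had 0, 2 and 4 counts against 2. The CXCL2 promoter peak (chr4:74099073-74099758) had 31, 49 and 51 counts against 3 in A375 cells, and 5, 2 and 6 against 3 in 1205Lu cells. Both exceeded IgG in A375 cells by unscaled counts alone. By share the CXCL8 peak was at 0.523 to 0.733 times IgG and the CXCL2 peak at 0.885 to 1.15 times there.

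Promoter peaks of the other 3 genes were of similar size. CCL2 had a pair of peaks, at chr17:34252309-34253077 with 35, 69 and 51 counts against 6 and at chr17:34254306-34255530 with 51, 64 and 44 against 6 in A375 cells. The IL24 peak (chr1:206898358-206898991), inside the gene, had 41, 57 and 60 counts against 7 in A375 cells. The peak before CXCL1 (chr4:73867923-73868309) was weaker, with 10, 13 and 17 counts against 1. By share these 4 peaks were below IgG in every A375 library, at 0.469 to 0.834 times.

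The strongest peaks lay further out. A peak 10.5 kb upstream of CXCL2 (chr4:74108896-74110449) had 888, 1311 and 1063 counts in A375 cells against 26 with IgG, and 6, 8 and 6 against 3 in 1205Lu cells. It had the most FRA1 counts of the 60 in A375 cells, and the nearest coding start is that of MTHFD2L, 4502 bases away. It was lower in 1205Lu cells relative to the library (log2 -4.64, standard error 0.311, adjusted p = 6.1e-12 from edgeR). By share it was 3.51 to 3.77 times IgG in A375 cells and 0.604 to 0.808 times in 1205Lu cells. CXCL2 RNA was at 12 to 20 counts in A375 cells.

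A peak 35.4 kb upstream of CXCL8 (chr4:73704334-73705936) had 327, 593 and 438 counts against 10 in A375 cells and 51, 118 and 87 against 6 in 1205Lu cells. By share it was above IgG in both lines (3.4 to 3.89 times in A375 and 3.93 to 5.91 times in 1205Lu cells), and its relative difference was not called (log2 0.24, standard error 0.213, adjusted p = 0.36 from edgeR). The peak 15.3 kb upstream of NFKBIA (chr14:35419540-35420626) had 191, 283 and 209 counts against 10 in A375 cells but 4, 2 and 3 against 2 in 1205Lu cells. It differed by log2 -3.52 (standard error 0.35, adjusted p = 6e-09 from edgeR), and by share it was 1.71 to 1.99 times IgG in A375 cells. Near CXCL1, the peak with the most counts lay 16.7 kb downstream of the start (chr4:73885720-73886488), with 61, 112 and 89 against 5 in A375 cells and 3, 0 and 1 against 3 in 1205Lu cells. By share it was 1.16 to 1.35 times IgG in A375 cells and no more than 0.404 times in 1205Lu cells.

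Peaks near LIF and IL1B stood out in 1205Lu cells. Of the 12 peaks near LIF, 5 were enriched in 1205Lu cells, and 6 were higher and 2 lower there relative to the library. The 2 lower ones lay 10827 bases downstream and 10746 bases upstream of the start (log2 -1.22 and -1.73, adjusted p = 0.016 and 1.5e-05 from edgeR). The LIF peak with the most counts, 40.3 kb downstream of the start (chr22:30205279-30207609), had 137, 281 and 214 counts against 18 in 1205Lu cells and 267, 390 and 313 against 18 in A375 cells. By share this was 3.89 to 5.18 times IgG in 1205Lu cells and 1.48 to 1.61 times in A375 cells. All 6 peaks near IL1B were higher in 1205Lu cells relative to the library, and 3 were enriched there. The peak 44.2 kb upstream (chr2:112880165-112881963), nearer to the start of IL37, had 98, 244 and 187 counts against 12 in 1205Lu cells and 38, 60 and 59 against 9 in A375 cells (log2 4.35, adjusted p = 1.3e-13 from edgeR). By share it was 4.06 to 6.58 times IgG in 1205Lu cells and below IgG in A375 cells. IL1B RNA was at 1 to 6 counts in 1205Lu cells, while LIF RNA was high.

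Other peaks were enriched in both lines by unscaled counts. One lay 42.8 kb upstream of TNFAIP3 (chr6:137823979-137824840), with 42, 92 and 81 counts against 1 in 1205Lu cells and 23, 31 and 29 against 4 in A375 cells, which by share was 11.3 to 16.3 and 0.448 to 0.527 times IgG. Near IL24, a peak 4.7 kb upstream (chr1:206892437-206893112) had 22, 42 and 42 counts against 2 in A375 cells and 16, 21 and 12 against 2 in 1205Lu cells. A peak 42.3 kb downstream of the CXCL2 start (chr4:74056341-74057449), nearer to CXCL3, had 164, 288 and 239 counts against 8 in A375 cells and 25, 58 and 56 against 2 in 1205Lu cells. The peaks with the most A375 counts near IL24 and IL1B passed the rule over IgG in A375 cells alone, yet both were higher in 1205Lu cells relative to the library. The former, 6.5 kb upstream (chr1:206890232-206891556), had 80, 161 and 99 counts against 9 in A375 cells and 33, 75 and 48 against 11 in 1205Lu cells (log2 1.56, adjusted p = 6.8e-07 from edgeR). The latter, 20.8 kb downstream (chr2:112811931-112813699), had 80, 124 and 126 against 13 in A375 cells and 47, 128 and 111 against 17 in 1205Lu cells (log2 2.41, adjusted p = 2.6e-09 from edgeR).

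**Figure D4:**
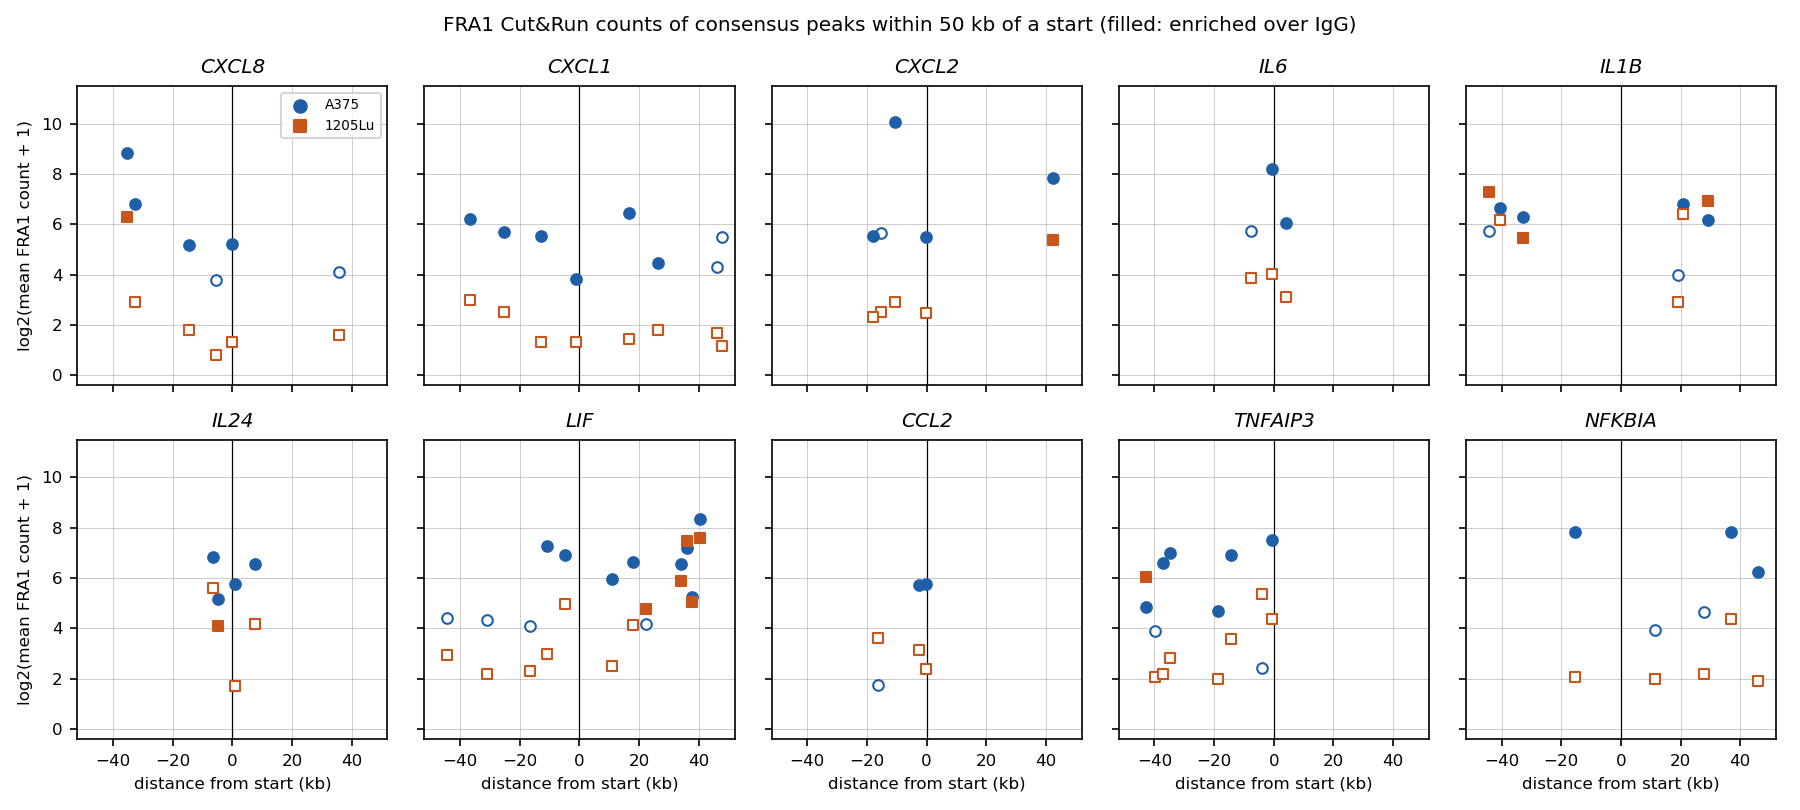
Mean FRA1 count of each consensus peak within 50 kb, as log2(count + 1), against its distance from the start of the gene, with negative values upstream. A375 cells are blue and 1205Lu cells orange, and filled symbols passed the rule over IgG on unscaled counts. No promoter peak is filled for 1205Lu cells, whereas the LIF and IL1B panels hold 5 and 3 filled orange symbols at a distance.

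Between the lines, 16 of the 59 nearby peaks tested were lower in 1205Lu cells and 18 higher, against 29% and 24.3% of all 53300 peaks tested. These are differences relative to the libraries' totals in peaks, and other scalings moved the split, to 22 lower and 16 higher with library totals alone and to 11 lower and 19 higher with DESeq2. These scalings shifted the median log2 difference of all peaks by -0.195 and 0.204. With FRA1 replicates 2 and 3 of 1205Lu cells kept apart, 19 were lower and 17 higher. Of the 18 higher peaks, 10 were enriched over IgG in 1205Lu cells, 12 in A375 cells and 4 in neither line. Among the 16 lower ones, enrichment over IgG was met by 15 in A375 cells and by 0 in 1205Lu cells.

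The AP-1 motif TGACTCA was no more than 100 bp from the centre in 16 of the 60 nearby peaks (26.7%), against 28.6% of all consensus peaks, and anywhere in 40 of them (66.7%), against 57.7%. The NF-kB consensus lay near the centre of 6 (10%), against 4.1%, and anywhere in 15 (25%), against 14.8%. The looser NF-kB motif was near the centre of 11 (18.3%), against 10% of all peaks, and anywhere in 34 (56.7%), against 32.2%, and CRE was near that of 1 (1.7%), against 0.5%. The stretches shown are the AP-1 matches nearest the centre in the peak with the most A375 or 1205Lu counts of 7 genes, shown so that the letters of the described peaks can be read, with 20 bases on each side on the plus strand of GRCh38 and the motif in capitals.
CXCL2 upstream peak (chr4:74109218-74109264, plus strand): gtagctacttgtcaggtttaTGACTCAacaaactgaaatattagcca
CXCL8 upstream peak (chr4:73705274-73705320, plus strand): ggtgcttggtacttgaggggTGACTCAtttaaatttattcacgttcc
IL6 promoter peak (chr7:22726897-22726943, plus strand): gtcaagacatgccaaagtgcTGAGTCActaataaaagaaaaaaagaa
TNFAIP3 promoter peak (chr6:137866954-137867000, plus strand): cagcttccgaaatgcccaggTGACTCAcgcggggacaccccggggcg
NFKBIA upstream peak (chr14:35419776-35419822, plus strand): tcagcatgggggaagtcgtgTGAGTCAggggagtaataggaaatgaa
LIF downstream peak (chr22:30207035-30207081, plus strand): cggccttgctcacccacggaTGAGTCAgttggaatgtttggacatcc
IL1B upstream peak (chr2:112881346-112881392, plus strand): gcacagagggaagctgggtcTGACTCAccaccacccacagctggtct

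In these peaks the matches lay between 162 bases (CXCL8) and 614 bases (LIF) from the peak centre. The IL6 and TNFAIP3 promoter peaks each hold an AP-1 motif outside the RefSeq promoter window, together with the NF-kB consensus printed above. The CCL2 promoter peaks held the NF-kB consensus and no AP-1 motif of these letters. Nor did the peaks 16.7 kb downstream of the CXCL1 start and 42.8 kb upstream of TNFAIP3 hold an AP-1 motif. Stretches are shown only for peaks that hold it.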

How the data were processed

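RNA-seq was available for 12 samples and Cut&Run for 8. Per the labels and the submitters' processing notes, the authors processed RNA-seq reads with STAR 2.7.7a and RSEM 1.3.0 on GRCh38, and what they deposited are expected counts, as whole values with no normalization. Bowtie2 2.4.1 and MACS2 2.1.1.20160309 are named for Cut&Run, for which the deposited values are unscaled read counts of every sample over 54563 consensus peaks. The sources used here do not say if samples were pooled for peak calling.

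Members, lists and tests were chosen with earlier results of these data known. Each comparison was fitted across all genes or peaks with edgeR 4.0.16 in R 4.3.3 (filterByExpr, TMM, quasi-likelihood test, Benjamini-Hochberg over all features tested), calling an adjusted p under 0.05. CPM values divide by the library total scaled by TMM over the 12 RNA-seq libraries, and levels per kb also by the GENCODE v44 transcript length. Peaks were given to the nearest start and named when within 3 kb of it or when highest among the enriched peaks of a gene in a line. Pathway genes were named at a log2 fold change over 1 in either line with a mean of at least 10 counts. Genes of like pattern were the 2 protein-coding genes of at least 1 CPM with the highest r. Motifs were searched with Python 3.11.15. The fits were tested on simulated data with known changes. Alternatives were DESeq2 1.42.0, other normalizations and filters, a replicate block, other limits over IgG, other distances and each library left out. Reads are not independent molecules, and counts over IgG have counting error that was not tested.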

Additional observations from a re-analysis of the deposited data

Results flagged for a closer look

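Of the 10 genes, 5 had an effect of FRA1 silencing that differed between the cell lines by the interaction of line and treatment over all 12 libraries. The log2 effect in 1205Lu cells minus that in A375 cells was 1.51 for CXCL1, which fell in A375 cells (log2 -0.98) and was at 0.52, not called, in 1205Lu cells. It was 2.35 for IL24, with effects of -0.03, not called, in A375 cells and 2.33 in 1205Lu cells. There the si-NT libraries held 0 to 7 counts, so that the size rests on very few reads and is given as a description. For LIF it was -0.37, and LIF fell in 1205Lu cells (log2 -0.41) and was at -0.03, not called, in A375 cells. For TNFAIP3 and NFKBIA it was -0.41 and -0.31, and both genes rose in both lines. FOSL1 was reduced 16.1-fold in A375 cells and 7.16-fold in 1205Lu cells, and its part in these differences was not tested.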

How the results depend on the processing

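No named gene's fold change that was called changed sign under the alternatives tried. The nearby peaks that differed between lines turned from 16 lower and 18 higher to 22 and 16 with library totals and to 19 and 17 with all 6 FRA1 libraries kept apart, and the share lower over all called peaks went from 54.4% to 43.7% with DESeq2. In 1205Lu cells the 1 member past a log2 fold change of 1, IL24, became 0 with DESeq2, which gave it no adjusted p, and 0 with at least 10 counts in every sample, which removes it. Leaving out libraries gave 0 to 1, with 0 without si-FRA1 replicate 1. Under the filter of at least 10 counts 5 members could be tested across both lines, so that those whose effect differed past that limit went from 2 to 1, those that differed between si-NT lines from 8 to 3 and, past the limit, from 7 to 2. Leaving out libraries gave 2 to 4 members whose effect differed past the limit, with 4 without A375 si-NT replicate 1. Called members ranged from 5 to 6 in A375 cells, from 3 to 4 in 1205Lu cells and from 4 to 7 for the difference in effect.

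For peaks over IgG, a limit of 8 times left 20 in A375 and 5 in 1205Lu cells, and scaling to the same total left 0 and 9. Within 3 kb of a start there were 8 and 0, with 3 that differed between lines (3 lower, 0 higher). With at least 10 counts in every sample, 17 peaks differed, 4 of them lower. Leaving out each FRA1 library gave 29 to 36 differing peaks, 12 to 18 lower and 17 to 21 higher. Without 1205Lu replicate 1 that line holds 1 sample, which was assumed to vary like those of A375 cells. Motifs anywhere in the peak were found in 40 (AP-1) and 15 (NF-kB consensus) peaks. GGNNNTTCC in place of the consensus, chosen after the data were seen, was near the centre of 11 peaks and anywhere in 34.

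Deviations of same-numbered libraries were nearly uncorrelated (r = 0.0318 to 0.0505 in A375 cells, -0.069 to -0.0358 in 1205Lu cells). Other pairs were at -0.0522 to 0.0195 in A375 cells and -0.0293 to 0.0759 in 1205Lu cells. The same-numbered values were thus the highest in A375 and the lowest in 1205Lu cells. Such small values do not settle whether the numbers pair the libraries, and the main fits used no pairing. With a replicate block 6 members were called in A375 cells, 4 in 1205Lu cells and 5 for the difference in effect, and 32 nearby peaks differed between lines. Depth limits CXCL2, IL6, IL1B, IL24 and CCL2 in 1205Lu cells and the 1205Lu Cut&Run values.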
